A study of Drosophila melanogaster with 2 samples.

Results

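The genes described are the nuclear genes for subunits of the oxidative phosphorylation complexes in Drosophila melanogaster, read against the places where the transcription factor Odd-skipped (Odd) was found on embryonic chromatin. They were taken by symbol from the protein-coding genes of the Ensembl annotation: symbols that begin with ND- (complex I), SdhA to SdhD (complex II), UQCR- (complex III), COX and a digit (complex IV) or ATPsyn (complex V). This gave 87 of the 13968 protein-coding genes on the nuclear chromosomes. Complex I had 40 genes, complex II had 7, complex III had 9, complex IV had 16 and complex V had 15. Of the 87, 24 have a symbol that ends in L or in L and a digit, the mark of a paralog of a named subunit, and 63 do not count as paralogs. ND-MNLL, whose symbol also ends in L, because it is named after the MNLL subunit itself, was counted with the 63. Chromosome arm 2L held 16 of the genes, 2R held 17, 3L held 20, 3R held 19, chromosome 4 held 2 and the X held 13.

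Odd is a zinc-finger repressor known from the segmentation of the embryo. The chromatin came from 1 group, a transgenic line that carries odd fused to eGFP, collected as whole embryos of mixed sex at 0 to 16 h and precipitated with an antibody to GFP in 2 biological replicates. Per the labels the fragments were of 200 to 800 bp. The tagged protein is a transgene product, the embryos pool all tissues and many stages, and a control library was not used here. Thus no contrast between conditions exists and every result below is a description of positions and ranks.

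Oxidative phosphorylation is the last stage of respiration. Complexes I to IV pass electrons from NADH and succinate to oxygen and, apart from complex II, pump protons across the inner mitochondrial membrane, and complex V (ATP synthase) uses the proton gradient to make ATP. Most subunits are encoded in the nucleus and imported, and embryos start with a maternal stock of mitochondria. In flies, several subunits have extra copies that are expressed mainly in the male germ line.

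The authors' list of reproducible peaks (the IDR list, for irreproducible discovery rate) held 4291 peaks on dm6. Each peak has a summit, the base of highest signal, and a signal value that the authors' caller gave it, which was used here only to rank peaks within 1 list (rank 1 is the strongest). The relaxed lists of the pool, of replicate 1 and of replicate 2 held 30000 peaks each and include background. The IDR list equals the 4291 strongest peaks of the pooled relaxed list, so the same number of strongest peaks was taken from each replicate for comparison. Read depth is unknown from peak lists, and the exact 95% (Clopper-Pearson) intervals below cover counting error only.

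Within the span of the gene or 5 kb to either side, the territory of the gene, an IDR summit was found for 34 of the 87 genes (39.1%, interval 28.8 to 50.1), against 39.7% of all protein-coding genes. The share of the subunit genes was near the background. An IDR summit at most 500 bp from a start of an annotated transcript (TSS, transcription start site) was found for 7 of the 87 (8.05%, interval 3.3 to 15.9), against 14.3% of all protein-coding genes. The subunit genes are short, with a median span of 1100 bp against 2164.5 bp for all genes, and short genes had fewer TSS summits. Among genes no longer than 3611.2 bp, the 90th percentile of the subunit genes, a TSS summit was found for 7 of 78 subunit genes (8.97%), against 9.67% of all 9405. In that same length class, 30 of the 78 subunit genes (38.5%) had a territory summit, against 33.3% of all such genes. The TSS share of the subunit genes was below that of all genes and close to that of short genes, and its interval contains both.

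**Figure D1:**
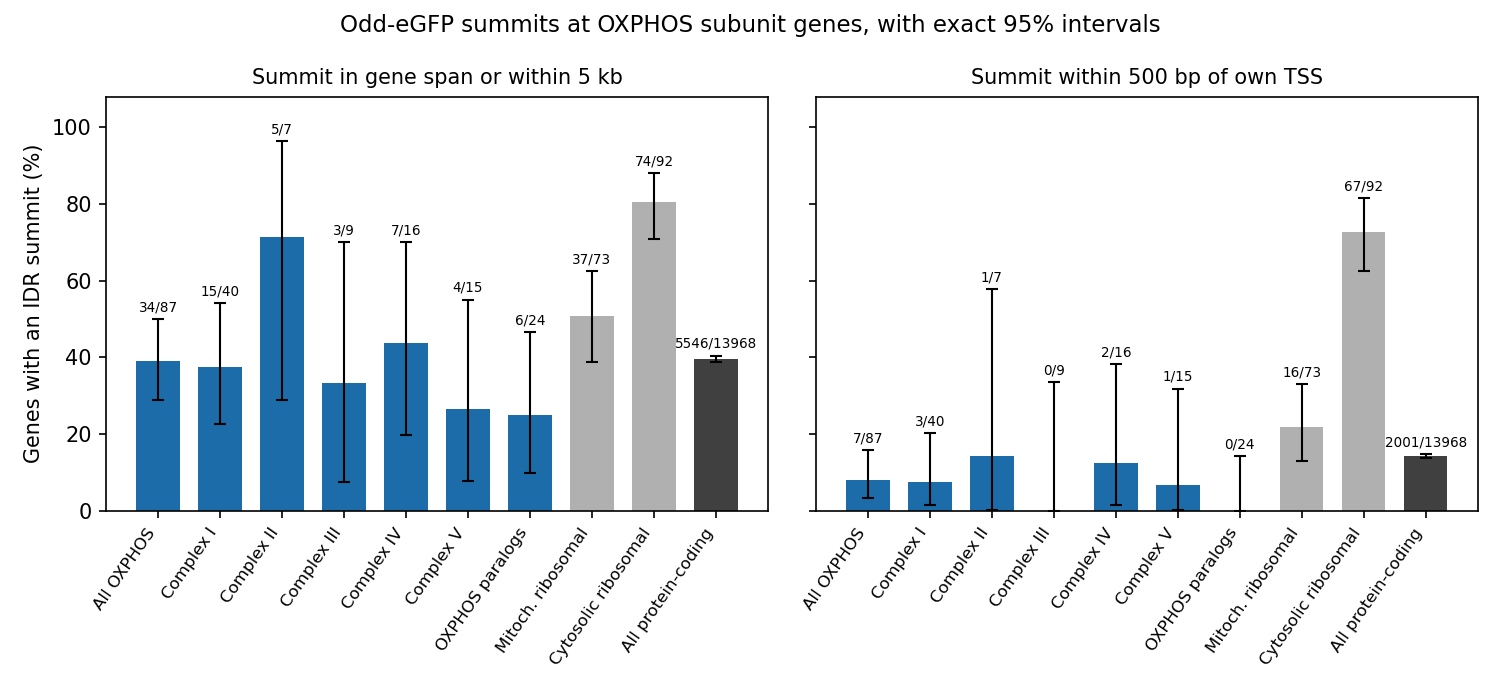
Percent of genes with an IDR summit in the territory (left panel) and within 500 bp of their own TSS (right panel), for the oxidative phosphorylation (OXPHOS) genes, each complex, their paralogs, ribosomal protein genes and all protein-coding genes. Bars are shares, whiskers are exact 95% intervals and the counts stand above each bar. The territory share of the 87 genes (39.1%) sits beside that of all genes (39.7%). Their TSS share (8.05%) is below those of all genes (14.3%) and of the cytosolic ribosomal genes (72.8%).

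The 5 complexes had 15 of 40, 5 of 7, 3 of 9, 7 of 16 and 4 of 15 genes with a territory summit, in the order I to V. Their genes with a TSS summit were 3, 1, 0, 2 and 1 in the same order. The intervals of all 5 complexes contain the share of all genes in both measures. Complex II, succinate dehydrogenase, had a territory summit at each of its 4 genes without paralogs (SdhA, SdhB, SdhC and SdhD), against 39.7% of all genes. Each of the 4 also had a relaxed pooled peak at the TSS, against 38.2% of all genes, though those of SdhA and SdhB were weak, at ranks 28387 and 16652. None of the 7 complex II genes had the nearest start to an IDR summit. Complex III, cytochrome c reductase, had no TSS summit among 9 genes, which allows a share of up to 33.6%.

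In complex I, the entry point for electrons from NADH, ND-ASHI, ND-MWFE and ND-B22 had an IDR summit at the TSS. All 3 encode accessory subunits. ND-ASHI (FBgn0029888, X: 6677262 to 6679118, minus strand) had the strongest of all 7 TSS summits. Its peak ranked 360 in the pool with a signal of 573.2, 470 in replicate 1 with 266.7 and 304 in replicate 2 with 299. The summit lay 265 bp upstream in the pool, 268 bp upstream in replicate 1 and 233 bp upstream in replicate 2. Both replicates thus placed a strong peak on the same site. The nearest protein-coding start was not that of ND-ASHI but that of Fum1, the gene for fumarase of the citrate cycle, at 257 bp. From these 2 starts the genes run away from the summit, and another start of Fum1 lies 694 bp downstream of the start of ND-ASHI.

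ND-B22 (FBgn0032511, 2L: 13370103 to 13371110, minus strand) ranked 2938 in the pool with a signal of 183.5, 5343 in replicate 1 with 68.97 and 2157 in replicate 2 with 112. Its summit lay 32 bp downstream of an annotated start inside the gene span, at 13371026, and had ND-B22 itself as the nearest gene. The replicates differed: replicate 2 had it among its 4291 strongest peaks and replicate 1 did not. ND-MWFE (FBgn0085468, 2R: 13158666 to 13160190, plus strand) ranked 2875 in the pool with a signal of 185.7 and 3552 in replicate 2 with 85.15. No peak within 500 bp was listed in replicate 1, so its summit at 200 bp upstream rests on 1 replicate and the pool. The nearest start was that of TppII, for the peptidase tripeptidyl-peptidase, at 21 bp.

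In complex II, SdhC (FBgn0037873, 3R: 11208887 to 11209849, minus strand), which encodes a membrane anchor of succinate dehydrogenase, had the weakest of the 7. Its peak ranked 4083 in the pool with a signal of 149.1, 3318 in replicate 1 with 90.97 and 9154 in replicate 2 with 47.29. The lowest signal in the IDR list was 144.4. Its summit lay 322 bp upstream and 76 bp from the start of Tctp, for the translationally controlled tumour protein, whose start lies 398 bp from that of SdhC on the opposite strand.

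In complex IV, cytochrome c oxidase, COX5A and COX7B had a TSS summit. COX5A (FBgn0019624, 3R: 11819359 to 11820299, plus strand) ranked 2881 in the pool with a signal of 185.4, 2218 in replicate 1 with 115 and 4293 in replicate 2 with 76.18. Its rank in replicate 2 was just outside the 4291 strongest. The summit lay 62 bp downstream, in the first intron, and 1 bp from a start of glo, the gene for the RNA-binding protein Glorund. COX7B (FBgn0040793, 3L: 17425477 to 17426282, plus strand) ranked 3833 in the pool with a signal of 155.4, 5006 in replicate 1 with 71.82 and 4138 in replicate 2 with 77.67. Its summit lay 100 bp upstream of its own start, the nearest one, with the start of the exocyst gene Sec3 at 260 bp upstream on the opposite strand.

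In complex V, ATPsynC (FBgn0039830, 3R: 31216145 to 31219630, minus strand), for the c subunit of the rotating ring of ATP synthase, ranked 1740 in the pool with a signal of 248.2. It ranked 2120 in replicate 1 with 117.9 and 1614 in replicate 2 with 131.8. The summit lay 56 bp downstream in the pool, 4 bp downstream in replicate 1 and 55 bp downstream in replicate 2. These distances are from an annotated start inside the gene span, at 31219559. ATPsynC had itself as the nearest gene and was, with ND-ASHI, 1 of the 2 genes of the 7 that ranked inside the 4291 strongest of both replicates. Over the 7 genes the median rank was 2881 (range 360 to 4083), against 1722 over the 2001 protein-coding genes with a TSS summit.

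The sequences around 3 of these summits, on the plus strand of dm6 for COX7B and on the minus strand for ND-ASHI and SdhC, show what lies between the gene and its neighbour. The bases are from the NCBI RefSeq Release 6 genome and lie outside annotated untranslated regions. ND-ASHI is chrX:6679323-6679443, SdhC is chr3R:11210111-11210231 and COX7B is chr3L:17425317-17425437. Each has 121 bases with the pooled summit in the middle. Capitals in SdhC mark a DRE (DNA replication-related element, TATCGATA), a palindrome bound by the factor Dref.
ND-ASHI: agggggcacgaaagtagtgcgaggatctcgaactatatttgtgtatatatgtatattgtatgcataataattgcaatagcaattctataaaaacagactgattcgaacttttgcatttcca
SdhC: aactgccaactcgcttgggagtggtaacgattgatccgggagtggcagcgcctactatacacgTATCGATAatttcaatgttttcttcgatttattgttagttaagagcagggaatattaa
COX7B: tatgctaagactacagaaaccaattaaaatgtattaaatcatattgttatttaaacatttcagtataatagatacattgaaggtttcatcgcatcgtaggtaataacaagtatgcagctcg
The first and the third hold none of the 8 short words searched for below. The stretch of SdhC holds the DRE, and the summit of SdhC was the single one of the 7 with a DRE within 100 bp (14.3%). The share of all IDR summits was 1.93%, but these also include summits away from any TSS. In the promoters of all genes with a TSS summit, a different window, the DRE lay in 12.3%.

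The next count gave each summit to 1 gene. The gene with the nearest protein-coding start, within 5 kb of an IDR summit, was a subunit gene for 7 of the 87 (8.05%), against 16.8% of all protein-coding genes and 9.46% of the short ones. The interval, 3.3 to 15.9, lies below the share of all genes and contains that of short genes. These were ND-B14.7, ND-B22, UQCR-6.4L, COX7AL2, COX7B, COX7C and ATPsynC. Of these, COX7AL2 (span 5388 bp) is longer than the short genes, so the 87 are not matched to them in length. In all, 51 IDR summits lay in the territories of the subunit genes, of which 10 were nearest to a subunit gene and 41 to another gene. Of those 41, 26 lay within 500 bp of the start of that other gene. Of the 34 genes with a territory summit, 3 were themselves nearest to their strongest summit (8.82%), against 1940 of 5546 (35.0%) for all genes. Among short genes it was 3 of 30 subunit genes, against 713 of 3133 (22.8%) of all. The 3 were COX7C, ND-B14.7 and UQCR-6.4L.

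**Figure D2:**
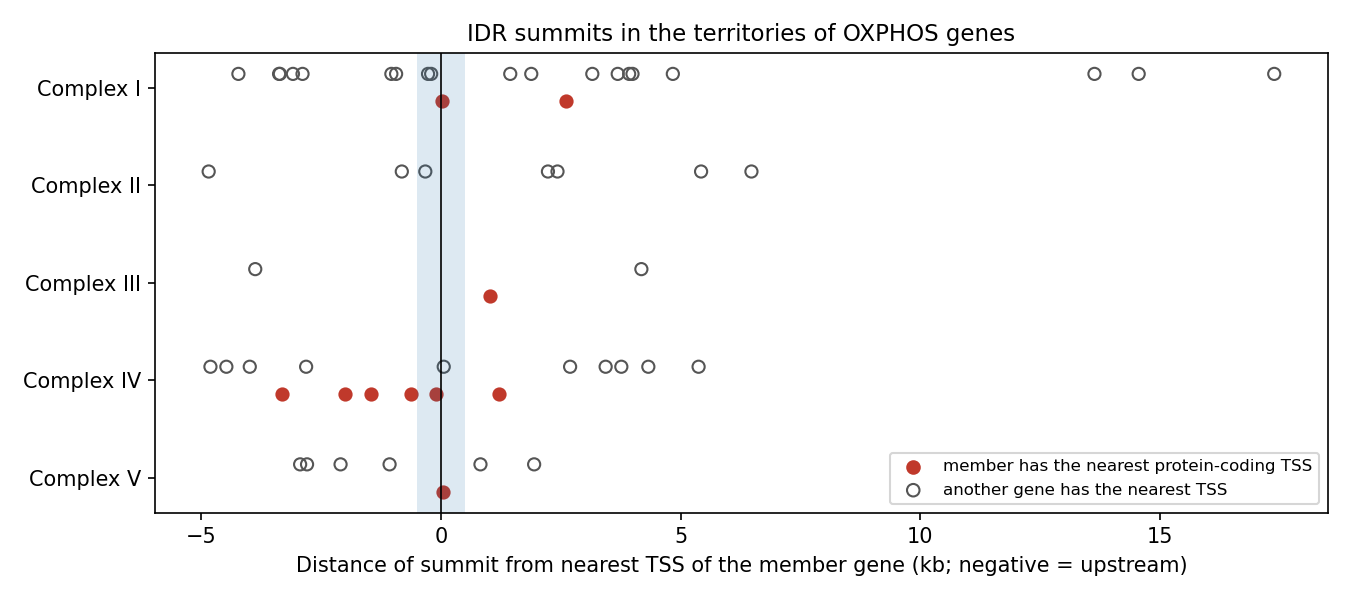
Distance in kb of each IDR summit in a territory from the nearest TSS of the subunit gene, by complex (negative is upstream). Filled circles are summits for which the subunit gene has the nearest protein-coding TSS (10 of 54 pairs of summit and gene) and open circles those nearest to another gene; the shaded band is 500 bp to each side of the TSS.

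The 3 strongest summits near subunit genes lay within 500 bp of the start of another gene. ND-51, the flavoprotein of complex I that binds NADH, had the strongest at rank 39 with a signal of 1276.3, and it lay 3354 bp upstream of ND-51 and 24 bp from the start of CG9147. SdhD, a membrane anchor of complex II, had rank 60 with a signal of 1125.4, at 149 bp from the start of Hrd3, a gene of protein degradation at the endoplasmic reticulum. UQCR-6.4, a small subunit of complex III, had rank 126 at 131 bp from POSH, which encodes a ubiquitin ligase scaffold. The next, of rank 148 in the territory of COX7AL2, lay 3784 bp from the nearest start, that of CG31668. ND-B17 had rank 368 at 540 bp from CycE (cyclin E), and ND-B8 had rank 644 at 1 bp from RpL27A, a cytosolic ribosomal gene. ND-B16.6 had rank 1072 at 1490 bp from kdn, the citrate synthase gene, and a summit in the territory of ATPsynCF6, of rank 2596, lay 40 bp from RpS3. Over the 34 genes the strongest territory summit lay at a median of 3046 bp from the gene's own start, against 2643 bp for all genes, and its median rank was 1386.5, against 1401 for all genes.

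Most subunit genes with a territory summit had a single one. There were 23 with 1 and 11 with 2 or more, and 53 had none. The split into 1 and more summits over all genes, or over short genes, is not given here. These counts therefore do not set the subunit genes apart. COX7AL2, a paralog, had 6 IDR summits, of ranks 148, 1068, 2432, 2647, 2689 and 4225, none within 500 bp of its own starts. For 4 of the 6 COX7AL2 had the nearest start, at 613 to 3315 bp. ND-B22 had 4, and ND-15, ATPsynC and COX7CL had 3 each. A summit of rank 620 lay in the territories of both COX5B and COX5BL, and those of ranks 1136 and 3340 in the territories of both COX7C and COX7CL, so these genes share their evidence.

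In replicate 1, 32 subunit genes had a territory summit among its 4291 strongest peaks (36.8%), against 40.3% of all genes, and in replicate 2, 36 had one (41.4%), against 41.4% of all genes. At the TSS, 5 subunit genes had a summit in replicate 1 (5.75%), against 14.4% of all genes, and 9 in replicate 2 (10.3%), against 15.5% of all genes. Summits at the TSS in both replicates, within 100 bp of each other, were found for 3 subunit genes (3.45%), against 10.4% of all protein-coding genes and 7.21% of the short ones. The interval, 0.717 to 9.75, lies below the share of all genes and contains that of the short ones. The 3 were ND-ASHI, ATPsynC and ND-42.

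ND-42 (FBgn0019957, 3R: 22027709 to 22029393, plus strand), for an accessory subunit of complex I, was listed in both replicates and not in the pool. Its peak ranked 1091 in replicate 1 with a signal of 173.8 and 1806 in replicate 2 with 123.7. Of the 7 genes with an IDR summit at the TSS, ND-ASHI ranked above ND-42 in replicate 1, and ND-ASHI and ATPsynC did so in replicate 2. The summits lay 205 bp and 236 bp upstream. No pooled relaxed summit lay within 500 bp, and the strongest one in the territory, of rank 7422, lay 4475 bp upstream. Such a loss was rare: of the 2863 strongest peaks of replicate 1 that matched a strongest peak of replicate 2, 18 (0.629%) had no pooled relaxed summit within 500 bp. The cause was not tested. ND-42 faces Cchl, which encodes the enzyme that attaches heme to cytochrome c, with starts 229 bp apart, and the 228 bases between them on the plus strand of dm6 (chr3R:22027481-22027708, RefSeq Release 6) read from Cchl towards ND-42.
ND-42: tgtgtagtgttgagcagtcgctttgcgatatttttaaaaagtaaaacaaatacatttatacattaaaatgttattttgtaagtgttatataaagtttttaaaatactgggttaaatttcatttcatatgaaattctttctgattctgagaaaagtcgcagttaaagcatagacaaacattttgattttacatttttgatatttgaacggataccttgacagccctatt
The summit of replicate 1 falls near the left end of this stretch and that of replicate 2 just beyond it, inside Cchl. None of the 8 words lies within it, and a CAGCTG lies 237 to 232 bases upstream of the start, at the summit of replicate 2.

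**Figure D3:**
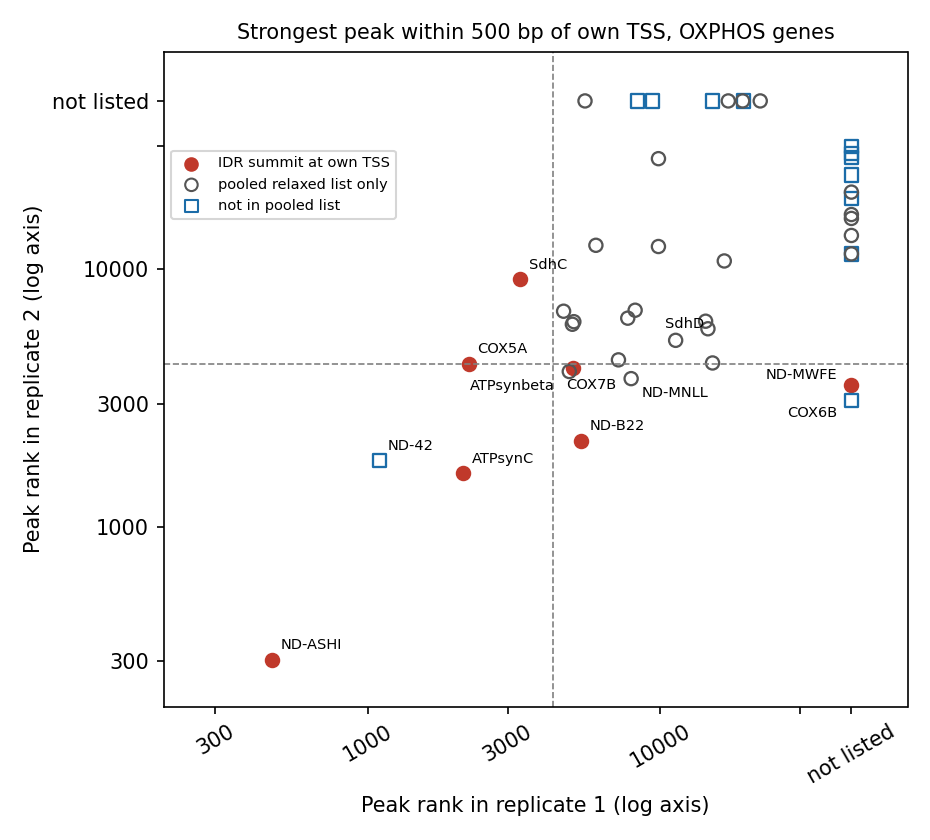
Rank of the strongest relaxed peak within 500 bp of the gene's own TSS in replicate 1 (x axis, log) and replicate 2 (y axis, log), for the 44 subunit genes with such a peak in either replicate. Filled circles have an IDR summit at the TSS, open circles a peak in the pooled relaxed list alone, squares none in the pooled list, and the dashed lines mark rank 4291; ND-42 is the square inside both lines and ND-ASHI has the highest ranks in both.

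Besides ND-42, another 3 subunit genes had a TSS summit among the 4291 strongest of replicate 2 and not in the IDR list. COX6B ranked 3084 in replicate 2 with a signal of 92.34 and had no peak at the TSS in replicate 1 or the pool. ATPsynbeta, the catalytic subunit of ATP synthase, ranked 5865 in the pool, 4878 in replicate 1 and 4005 in replicate 2. ND-MNLL ranked 5060 in the pool, 7940 in replicate 1 and 3758 in replicate 2. In the pool, the genes with a TSS peak just outside the IDR list were ND-24 at rank 4454, COX7AL2 at 4591, ND-SGDH at 4858, ND-MNLL at 5060 and ND-15 at 5212, and the weakest inside was SdhC at 4083.

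With all relaxed peaks, background included, a summit at the TSS was found in the pool for 34 of the 87 (39.1%), against 38.2% of all protein-coding genes. In replicate 1 it was 31 (35.6%), against 39.3%, and in replicate 2 it was 36 (41.4%), against 41.7%. There were 22 subunit genes with such a peak in all 3 lists and 41 with one in none (47.1%), against 51.1% of all genes. Of the 44 genes with a peak in either replicate, 23 had one in both, 8 in replicate 1 alone and 13 in replicate 2 alone. Shares of all genes for these splits, and for the 22, are not given here. A peak in both replicates need not be at the same site. Summits of the replicates within 100 bp of each other were found for 18 of the 87 (20.7%), against 26.8% of all genes. In each full relaxed list, the shares of subunit genes with a TSS peak were near the background.

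Of the 53 genes with no IDR summit in the territory, 30 had a weaker pooled peak there. With all pooled relaxed peaks, 64 of the 87 (73.6%) thus had a territory summit, against 72.1% of all genes. The 5 with the highest pooled ranks were ND-B12 at 4350, ATPsyndelta at 4470, UQCR-14 at 4536, ND-51L1 at 4673 and ND-MNLL at 5060. The others were ATPsynepsilonL, UQCR-C2, ND-75, ATPsynbeta, UQCR-Q, COX7A, ND-42, UQCR-14L, ATPsynCF6L, ND-B18, ND-13B, ND-49, ATPsynG, ND-20L, ND-20, ND-B14.5B, ND-B14.5AL, COX4L, UQCR-11, ND-24L, ND-MLRQ, ATPsynF, SdhAL, COX6B and ND-51L2. The remaining 23 had no pooled relaxed summit in the territory at all. They were ATPsynB, ATPsynGL, ATPsynO, ATPsynbetaL, ATPsyngamma, COX4, COX6AL, COX6AL2, COX6CL, COX7AL, COX8, ND-19, ND-23, ND-30, ND-49L, ND-AGGG, ND-B14, ND-B14.5A, ND-B15, ND-B17.2, ND-PDSW, SdhCL and UQCR-C1.

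Of the 24 paralogs, 6 had a territory summit (25%, interval 9.77 to 46.7), against 28 of the 63 others (44.4%, interval 31.9 to 57.5). The share of all genes was 39.7%. The 6 were SdhBL, UQCR-11L, UQCR-6.4L, COX5BL, COX7AL2 and COX7CL. At the TSS none of the 24 had an IDR summit (interval up to 14.2%), against 7 of the 63 (11.1%) and 14.3% of all genes. In the pooled relaxed list, 4 of the 24 (16.7%) had a peak at the TSS, against 30 of the 63 (47.6%). The share of all genes in that list was 38.2%. The gene had the nearest start to an IDR summit for 2 of the 24 (8.33%), against 5 of the 63 (7.94%). For all genes it was 16.8%. The intervals of the 2 groups overlap in each of these measures, which does not show that the groups are alike. The difference between them was not tested.

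Many subunit genes start near the start of a gene on the opposite strand. A protein-coding start on the opposite strand lay within 1 kb of the start of 42 of the 87 (48.3%), against 35.3% of all genes. Of these 42, 5 had a TSS summit (ND-ASHI, ND-MWFE, SdhC, COX5A and COX7B), against 2 of the 45 others (ND-B22 and ATPsynC). The TSS share of all genes was 14.3%, and that of all genes with such a neighbour is not given here. By the gene records, the neighbour's start lay downstream of the start of ND-ASHI (694 bp), ND-MWFE (475 bp) and COX5A (61 bp), so these pairs overlap. It lay upstream for SdhC and COX7B. For 4 of the 5 a start of the neighbour was nearer to the summit, and COX7B was the exception. Precipitated chromatin near the starts of 2 genes does not tell them apart.

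Ribosomal protein genes, which also encode parts of large complexes, were read in the same lists. The subunit genes had a TSS summit at 8.05%, mitochondrial ribosomal protein genes at 16 of 73 (21.9%, interval 13.1 to 33.1) and cytosolic ones at 67 of 92 (72.8%, interval 62.6 to 81.6). The interval of the subunit genes did not overlap that of the cytosolic set and overlapped in part that of the mitochondrial set. Overlap of intervals does not show that groups are alike, and the difference was not tested. The share of all genes, 14.3%, lay inside the intervals of the subunit genes and of the mitochondrial set. A territory summit was found for 34 of the 87 subunit genes (39.1%), against 39.7% of all genes. For the ribosomal genes it was 37 of the 73 mitochondrial (50.7%) and 74 of the 92 cytosolic ones (80.4%). With each summit given to its nearest gene, the share was 8.05% for the subunit genes and 7 of 73 (9.59%) for the mitochondrial ribosomal genes. The share of all genes by that count was 16.8%. The high share of the cytosolic ribosomal genes was in view when this comparison was made.

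Other genes of respiration were read from lists of symbols. The shares of all genes, 39.7% with a territory summit and 14.3% with a TSS summit, are the background for each list. Of 12 electron transport and assembly genes with other symbols, 8 had a territory summit (66.7%, interval 34.9 to 90.1) and 2 a TSS summit (16.7%, interval 2.09 to 48.4). Cyt-c-d, the cytochrome c of the male germ line, had rank 144 at its TSS, though the nearest start was that of CG31808 at 166 bp. The gene blw, for the alpha subunit of ATP synthase, had rank 2465 at 167 bp upstream of its own start, the nearest, and was inside the 4291 strongest in both replicates (ranks 1827 and 3979). Thus the alpha and c subunits of ATP synthase had a TSS summit, and the beta subunit had one in the pooled relaxed list. In that list, 5 of the 11 complex V genes without paralogs had one (45.5%), against 38.2% of all genes. Of 12 regulators of mitochondrial genes and mitochondrial DNA, 9 had a territory summit (75%, interval 42.8 to 94.5) and 2 a TSS summit (16.7%, interval 2.09 to 48.4). Dref, the factor that binds the DRE, had rank 222 at 91 bp upstream of its start, which is 7 bp from the start of RpL13, and mtTFB1, a mitochondrial transcription factor, had rank 4119 at 447 bp upstream of its start, which is 21 bp from the start of CG11658. Of 13 citrate cycle and pyruvate dehydrogenase genes, 7 had a territory summit (53.8%, interval 25.1 to 80.8) and 2 a TSS summit (15.4%, interval 1.92 to 45.4). These 2 were Idh3g, of isocitrate dehydrogenase, at rank 196 and Fum1 at rank 360, the summit that ND-ASHI shares.

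Short words were counted in promoters of 300 bases (250 before the TSS and 50 from it on, by the start of the gene record), on both strands. The word ACAGTAGC, known for the zinc fingers of the Odd family, lay in the promoter of 1 of the 87 (1.15%), against 0.523% of all protein-coding genes. The 1 was SdhD (FBgn0039112, 3R: 23759483 to 23760600, minus strand). The pooled relaxed summit of SdhD at its own start ranked 5646, with 11273 in replicate 1 and 5292 in replicate 2, so the peak was outside the IDR list. The summit lay 29 bp upstream, just downstream of the word at 39 to 32 bases upstream. The 120 bases before the start of SdhD (chr3R:23760601-23760720, minus strand, dm6, RefSeq Release 6) are shown because they hold this single match, in capitals as the reverse complement of the word, and a CAGCTG, also in capitals.
SdhD: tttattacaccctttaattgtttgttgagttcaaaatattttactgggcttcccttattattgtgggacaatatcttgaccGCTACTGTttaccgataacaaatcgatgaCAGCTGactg
None of the 7 IDR summits at subunit genes had ACAGTAGC within 100 bp, against 0.862% of the 4291 IDR summits.

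The core of Motif 1, GGTCACAC, a word of housekeeping promoters in flies, differed most from all genes, in percentage points, of the 8 words. It lay in 16 of the 87 promoters (18.4%, interval 10.9 to 28.1), against 7.69% of all genes, and in 15 of the 63 genes without the paralogs (23.8%). The shares of the cytosolic (15.2%) and mitochondrial (11%) ribosomal genes lie inside the interval of the 87. Among the 7 genes with a TSS summit it lay in 4 (ND-MWFE, COX5A, COX7B and ATPsynC), against 12 of the 80 others. Over all genes with a TSS summit the share was 9.9%. Within 100 bp of the summit itself the word lay at 1 of the 7, COX5A, against 1.4% of all IDR summits. All IDR summits also include those away from any TSS. The other 3 promoters held the word farther from the summit.

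The COX5A window shows the intron at that summit. It is chr3R:11819421-11819481 on the plus strand of dm6 (RefSeq Release 6), 61 bases that start at the pooled summit and lie outside annotated untranslated regions. It holds none of the words, and the Motif 1 core of COX5A lies before the window, 35 to 28 bases upstream of the start.
COX5A: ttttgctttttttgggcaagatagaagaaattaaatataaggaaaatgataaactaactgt

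The DRE, TATCGATA, lay in 9 of the 87 promoters (10.3%), against 9.36% of all genes, and in none of the 24 paralogs. All 9 were genes without a TSS summit: ND-15, ND-19, ND-23, ND-B14.5A, ND-B15, ND-MNLL, UQCR-14, COX4 and COX7A. The E-box CAGCTG lay in 21 (24.1%), against 17.6% of all genes, 54.8% of the mitochondrial ribosomal genes and 9.78% of the cytosolic ones. It lay in 0 of the 7 promoters of subunit genes with a TSS summit, against 23.1% over all genes with one. Within 100 bp of the summit itself, a different window, CAGCTG lay at 1 of the 7, ND-B22 (14.3%), against 9.14% of all IDR summits. The other E-box, CACGTG, lay in 4 (4.6%), against 4.2%. GAGAG, the word of the GAGA factor, lay in 20 (23%), against 29.7%, and was in 10 of the 24 paralogs (41.7%) and 10 of the 63 others (15.9%). CAGGTAG, the word of the early activator Zelda, lay in 2, ND-19 and ND-MWFE (2.3%), against 1.64%. The NRG element, a longer palindrome described upstream of nuclear respiratory genes, had no exact match in the 87, which allows a share of up to 4.15%, and lay in 0.873% of all promoters. A match is a string of letters in the window and says nothing about binding of any factor.

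**Figure D4:**
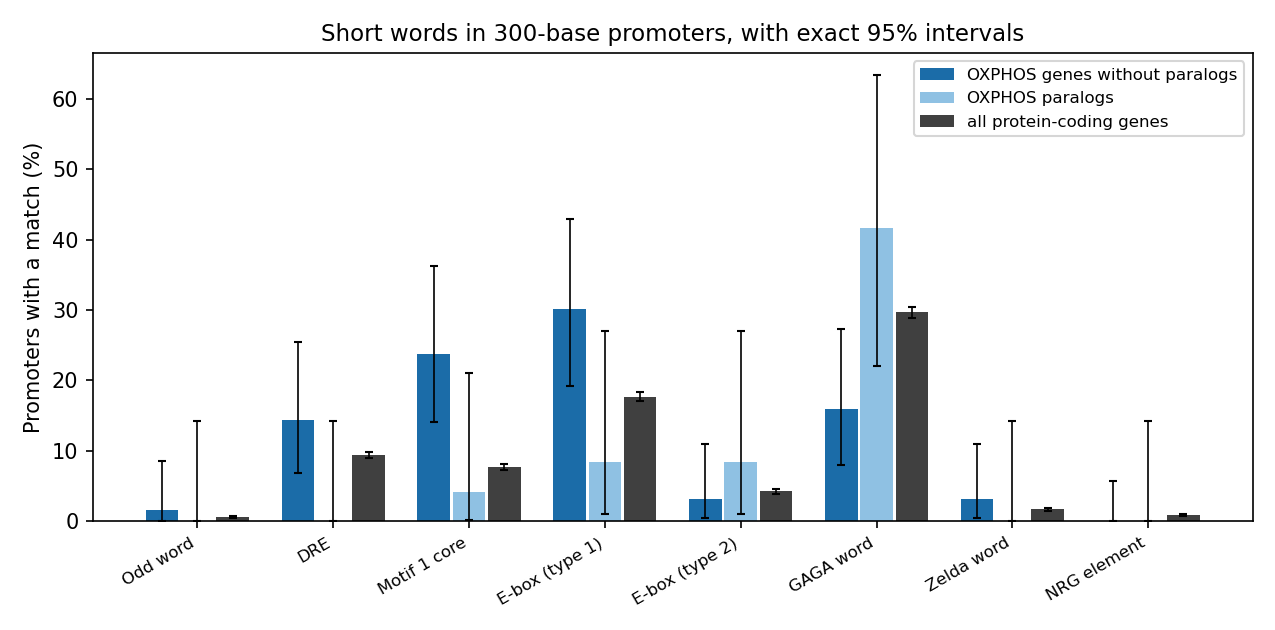
Percent of 300-base promoters with a match to each word on either strand, for subunit genes without the paralogs (63), their paralogs (24) and all protein-coding genes (13968), with exact 95% intervals. E-box type 1 is CAGCTG and type 2 is CACGTG; the Motif 1 core is at 23.8% of the genes without the paralogs, above the 7.69% of all genes, and at 1 of the 24 paralogs.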

How the data were processed

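The deposited peak lists of 1 group of Odd-eGFP embryos (2 biological replicates) on dm6 were read: the IDR list of the pool and the relaxed lists of the pool and of each replicate. The signal value is the authors' deposited score for each peak, used only to rank peaks within a list, and the summit offset is another deposited number of the same record, in bp from the peak start. The sources used here do not give the aligner, the peak caller or the IDR cutoff. The dm3 lists were not used. Genes, starts and untranslated regions came from Ensembl release 115 and sequence from NCBI Release 6. Shares were computed with Python 3.11.15, numpy 2.4.6 and scipy 1.17.1, and the assignment of summits was tested on simulated data.

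The members and lists were chosen with earlier results of these data known. Every member with an IDR summit at its TSS was named with its ranks, and the 3 strongest of each complex were given in full; examples at neighbours, and the counts per gene, were chosen after their values were seen. ND-MNLL was moved out of the paralogs after the data were seen. The background of short genes and the use of either replicate alone were also added then.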

Additional observations from a re-analysis of the deposited data

How the results depend on the processing

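Of 42 alternatives, 25 stayed within 1.5 times of the reported count (or within the spread) and 17 did not. Shares of all genes follow each count. Territory summits were at 19 genes with the stronger 50% of the IDR list (21.8%, against 27%), 64 with all pooled relaxed peaks (73.6%, against 72.1%), 16 within 1 kb (18.4%, against 22.8%) and 53 within 10 kb (60.9%, against 53.6%). With 1 replicate alone they ranged from 32 (36.8%, against 40.3%) to 36 (41.4%, against 41.4%). TSS summits were at 2 genes with the stronger 50% (2.3%, against 8.52%) and 20 with the 10000 strongest pooled peaks (23%, against 24.5%). They were at 34 with all pooled peaks (39.1%, against 38.2%) and 11 within 1000 bp (12.6%, against 17.2%). In either replicate they were at 11 (12.6%, against 18.6%). With 1 replicate alone they ranged from 5 (5.75%, against 14.4%) to 9 (10.3%, against 15.5%). Nearest starts were at 4 genes with the stronger 50% (4.6%, against 10.2%). They were at 5 with replicate 1 alone (5.75%, against 16.8%) and at 10 with replicate 2 alone (11.5%, against 17.3%). Matched summits were at 18 with all relaxed peaks of both replicates (20.7%, against 26.8%). The median TSS rank was 2120 over 5 genes in replicate 1 and 3084 over 9 genes in replicate 2, by the ranks of each replicate. The spread used for this median was the SD of these same 2 values, 681.7, so it cannot judge their stability. Within 100 bp of the 7 summits rather than in promoters, the word of Odd lay at 0%, against 0.862% of all IDR summits. On the same basis the words of the GAGA factor (against 27.4%) and of Zelda (against 1.26%) lay at 0%. The E-box CACGTG lay at 0%, against 2.24%, and the E-box CAGCTG at 14.3%, against 9.14%. With 7 summits, 0% says little about a rare word. No paired analysis was possible because there is 1 group. Unknown depth limits the absence of a peak to these lists, and 7 genes leave wide intervals.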
